A study of Arabidopsis thaliana with 21 samples.

Results

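Small RNAs of 2 single mutants of Arabidopsis thaliana, dxo1-2 and dcl4-2, were compared locus by locus at 10 days of age. The comparison used 6 of the 12 small RNA libraries of a series of 21 samples: 3 of dxo1-2 and 3 of dcl4-2. The remaining 6 small RNA libraries, 3 of the cross dxo1-2dcl4-2 and 3 of wild-type Col-0, entered the estimate of the spread and are quoted beside the results. The labels give each mutant by its allele name alone, dxo1-2 for the gene DXO1 and dcl4-2 for the gene DCL4, and name no treatment. The cross carries both alleles, and Col-0 carries neither. Reads of 21, 22 and 24 nt were tabulated separately at 32420 loci. A locus entered the comparison in a size class when its mean over the 6 libraries was at least 5 normalized reads. This rule kept 1638 loci at 21 nt, 2124 at 22 nt and 3421 at 24 nt. At the edge of the rule at 21 nt, AT2G02110 stood just inside with a mean of 5.003 and AT5G42645 just outside with 4.9996.

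Plants make small interfering RNAs (siRNAs) by cutting long double-stranded RNA with Dicer-like enzymes. DCL4 yields the 21-nt siRNAs, DCL2 the 22-nt siRNAs, DCL3 the 24-nt siRNAs that direct DNA methylation at repeats, and DCL1 most microRNAs. When DCL4 is missing, DCL2 is known to act on many of its substrates. DXO1 has deNADding activity, the removal of NAD caps from RNA, and works as an exonuclease, as the title of the series states. RNA decay enzymes are known in plants to limit the entry of coding transcripts into the siRNA pathway.

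The 3 dxo1-2 libraries held 288852 to 893943 reads over the 3 size classes, and the 3 dcl4-2 libraries held 195104 to 303428. Of the 1638 loci tested at 21 nt, 9 to 41 were at 0 in a dxo1-2 library, against 252 to 352 in a dcl4-2 library. No read at a locus therefore means less in dcl4-2, where 1 read was worth 1.09 to 1.55 normalized reads at 21 nt, against 0.378 to 1.05 in dxo1-2. Whether the replicates are separate cultures is not in the labels, and the p-values reflect the spread among these libraries, which may be technical. The labels call the tissue rosette leaves and the extraction text calls it seedlings. That label was not checked, since the small RNA tables hold no mRNA. In these whole-tissue samples, fewer cells making a small RNA and less of it per cell cannot be told apart.

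The 22-nt class took a smaller share of the reads in dxo1-2 than in dcl4-2. It held 21.4%, 22.6% and 22.5% of the reads of the 3 classes in the dxo1-2 libraries, against 32.1%, 31.0% and 29.5% in the dcl4-2 libraries. The means were 22.1% ± 0.675 in dxo1-2 and 30.8% ± 1.32 in dcl4-2 (SD, n = 3 each), and the groups did not overlap. The 24-nt class held 38.2% ± 4.42 in dxo1-2 and 25.7% ± 4.39 in dcl4-2, again without overlap. Both differences had an exact 2-sided permutation p of 0.1, the smallest that 3 libraries against 3 allow. The 21-nt class held 39.7% ± 3.9 in dxo1-2 and 43.5% ± 3.73 in dcl4-2, which overlapped (exact permutation p = 0.3). In Col-0 the 22-nt share was 24.3%, 21.9% and 22.1%. The 24-nt share in Col-0 was 21.32%, 36.3% and 36.8%. Libraries of this group alone thus ran from just below the lowest dcl4-2 value (21.48%) to within the dxo1-2 values (33.34% to 42.05%). At 21 nt the Col-0 share was 54.4%, 41.8% and 41.1%.

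Among the called loci, protein-coding genes were mostly higher in dxo1-2 at 21 nt, with 161 higher and 9 lower, and pseudogenes mostly lower at 22 nt, with 71 lower and 18 higher. At 21 nt, 193 loci were higher in dxo1-2 (11.8% of the loci tested) and 57 were lower (3.48%), so that 15.3% passed in either direction (limma on log2 of normalized reads plus 0.5, Benjamini-Hochberg adjusted p under 0.05). At 22 nt, 54 loci were higher in dxo1-2 (2.54%) and 102 were lower (4.8%), 7.34% in all. At 24 nt, 15 were higher (0.438%) and 45 lower (1.32%), 1.75% in all. Of the 193 loci higher at 21 nt, 161 were protein-coding and 24 were pseudogenes, while 915 protein-coding loci and 500 pseudogenes were tested. Of the 102 loci lower at 22 nt, 71 were pseudogenes, which is 6.12% of the 1160 pseudogenes tested, beside 4.8% of all loci. The 3 dxo1-2 values lay above all 3 dcl4-2 values at 190 of the 193 loci, and 23.9% of all loci tested at 21 nt did so. They lay below at 10.1% of the loci at 21 nt. At 22 nt 17.2% lay above and 15.6% below, and at 24 nt 9.82% lay above and 12.2% below.

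**Figure D1:**
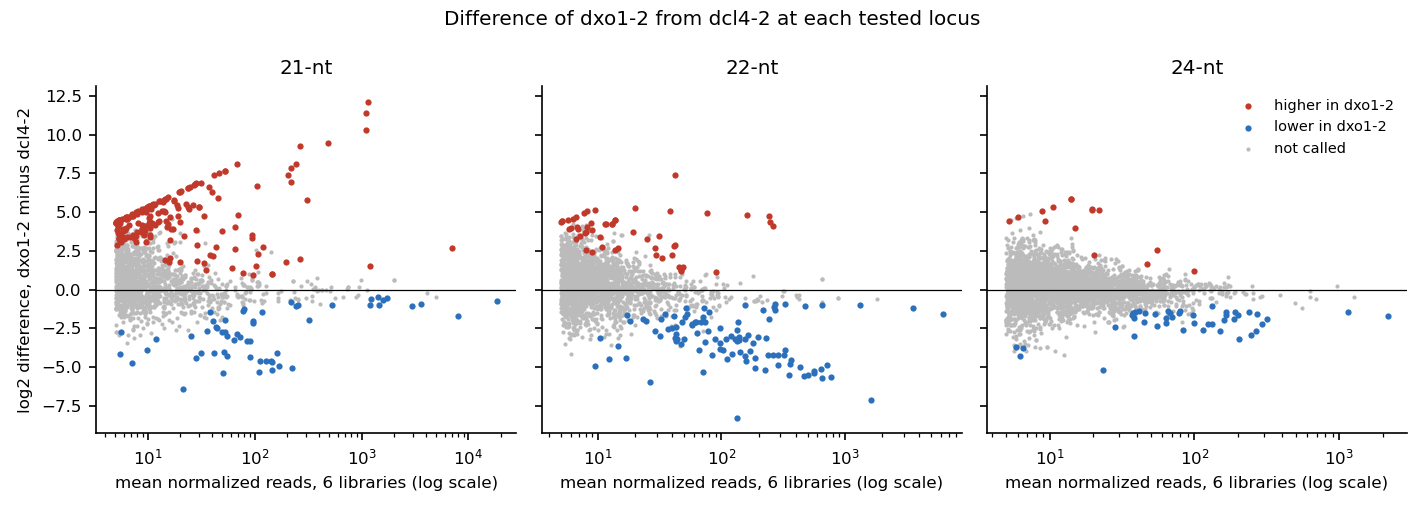
Each point is a locus tested in one size class (21, 22 and 24 nt from left to right). The x axis gives the mean normalized reads over the 6 libraries on a log scale and the y axis the log2 difference, dxo1-2 minus dcl4-2, of normalized reads plus 0.5. Loci called higher in dxo1-2 are red, those called lower blue and those not called grey. At 21 nt 193 loci were called above 0 and 57 below, while at 22 nt 102 of the 156 called loci lay below 0.

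The split of the calls by direction moved with the scaling between libraries. At 21 nt, 77.2% of the called loci were higher in dxo1-2 under the deposited scaling. That share was 64.4% with each library centred on its median, 55.1% with quantile normalization and 67.2% in edgeR on recovered reads. At 22 nt it was 34.6%, against 46.7% with quantile normalization and 46.8% after scaling to the total reads of the 3 classes. At 24 nt it was 25% under the deposited scaling and 90% after scaling to total reads. The median log2 difference of all loci tested was 0.487 at 21 nt, 0.27 at 22 nt and 0.0734 at 24 nt. It was 0.0937 and −0.231 at 21 nt after centring and quantile normalization, and 0.907 at 24 nt after scaling to total reads. The log2 differences below are to be read against these medians.

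The clearest 21-nt siRNA sources in dxo1-2 that were nearly empty in dcl4-2 were loci of the pentatricopeptide repeat (PPR) family. PPR proteins bind organelle RNA, and a clade of them on chromosome 1 is known as a source of secondary siRNAs. A list of 23 such loci was used. At 21 nt, 17 of the 23 passed the filter and the 17 were all higher in dxo1-2, with 16 of them also called by edgeR. Over all loci, 11.8% were higher. With so few reads in dcl4-2, these loci passed the filter mainly through dxo1-2, so the count of 17 among 17 is partly set by the filter. With the filter at a mean of 1, 17 of 19 were higher. Their median log2 difference was 7.39, beside 0.487 over all loci. Summed over the list, dxo1-2 libraries held 7276 to 10821 normalized reads, dcl4-2 libraries 34.2 to 46.6, dxo1-2dcl4-2 libraries 81.0 to 120.1 and Col-0 libraries 7394 to 9425. The sums in dxo1-2 overlapped those in Col-0, and both mutants carrying dcl4-2 lay far below them.

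AT1G63080 had 2917, 2548 and 1443 normalized 21-nt reads in dxo1-2, against no read in any of the 3 dcl4-2 libraries. Its dxo1-2 values spanned those of Col-0, which were 1924, 2528 and 2072. The locus was at least 1571-fold higher in dxo1-2, set against a floor of 3 reads over the dcl4-2 group (log2 difference 12.11 ± 0.54 SE, limma adjusted p = 3.89e-10). Where a group is near 0, here and below, the log2 difference depends on the added 0.5. AT1G62914 had 2797, 2450 and 1315 in dxo1-2, against 0, 1.37 and 0 in dcl4-2. With 1 read in the dcl4-2 group, the ratio was 4439 (95% counting interval 797 to 175400). AT1G63400 had 2811, 2474 and 1324 in dxo1-2, against 0, 5.47 and 1.09 in dcl4-2 (log2 difference 10.29, limma adjusted p = 4.81e-08). These loci have values close to each other in each library and may share reads, since how reads with several matches were counted is not given in the labels.

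AT1G63130 differed from these in keeping some 21-nt reads in dcl4-2. It had 484, 635 and 685 in dxo1-2, against 15.5, 6.84 and 10.9 in dcl4-2 (log2 difference 5.76 ± 0.42 SE, limma adjusted p = 1.07e-07). RPF3, an RNA processing factor of mitochondria, had 373, 387 and 535 in dxo1-2, against 6.21, 1.37 and 0 in dcl4-2 (limma adjusted p = 3.79e-07). RPF2, another factor for mitochondrial RNA ends, had 70.0, 110.6 and 135.3 in dxo1-2 and no read in dcl4-2, at least 86.4-fold higher. In each of these loci the lowest dxo1-2 library was far above the highest dcl4-2 library. The smallest difference of the list was at AT1G06580, with 16.6, 8.43 and 24.9 in dxo1-2 and 6.21, 1.37 and 0 in dcl4-2 (log2 difference 3.09, limma adjusted p = 0.0254), which edgeR did not call (adjusted p = 0.105).

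The same loci also gave more 22-nt reads in dxo1-2, though with a smaller difference. At 22 nt, 12 of the 23 passed the filter, and 10 were higher in dxo1-2, beside 2.54% of all loci. None was lower by limma or edgeR, or at an unadjusted p under 0.05. With the filter at a mean of 1, 7 of 19 were higher. The list held 1360 to 2129 normalized 22-nt reads in dxo1-2, 145.6 to 195.0 in dcl4-2, 108.8 to 381.7 in dxo1-2dcl4-2 and 1648 to 2280 in Col-0. AT1G63080 had 614, 530 and 334 in dxo1-2, against 19.3, 29.7 and 36.5 in dcl4-2 (log2 difference 4.09 ± 0.46 SE, limma adjusted p = 4.61e-06). The 22-nt reads at this locus were thus also fewer in dcl4-2, which still held reads in every library. Leaving out dxo1-2 replicate 1 brought the 10 calls at 22 nt to 6. At 24 nt, 3 of 8 were higher (AT1G63080, AT1G62914 and AT1G63400), beside 0.438% of all loci. These 3 too passed the filter mainly through dxo1-2, and with the filter at a mean of 1, 3 of 16 were higher. Of the 8, 0 were higher when dxo1-2 replicate 1 or replicate 2 was left out.

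**Figure D2:**
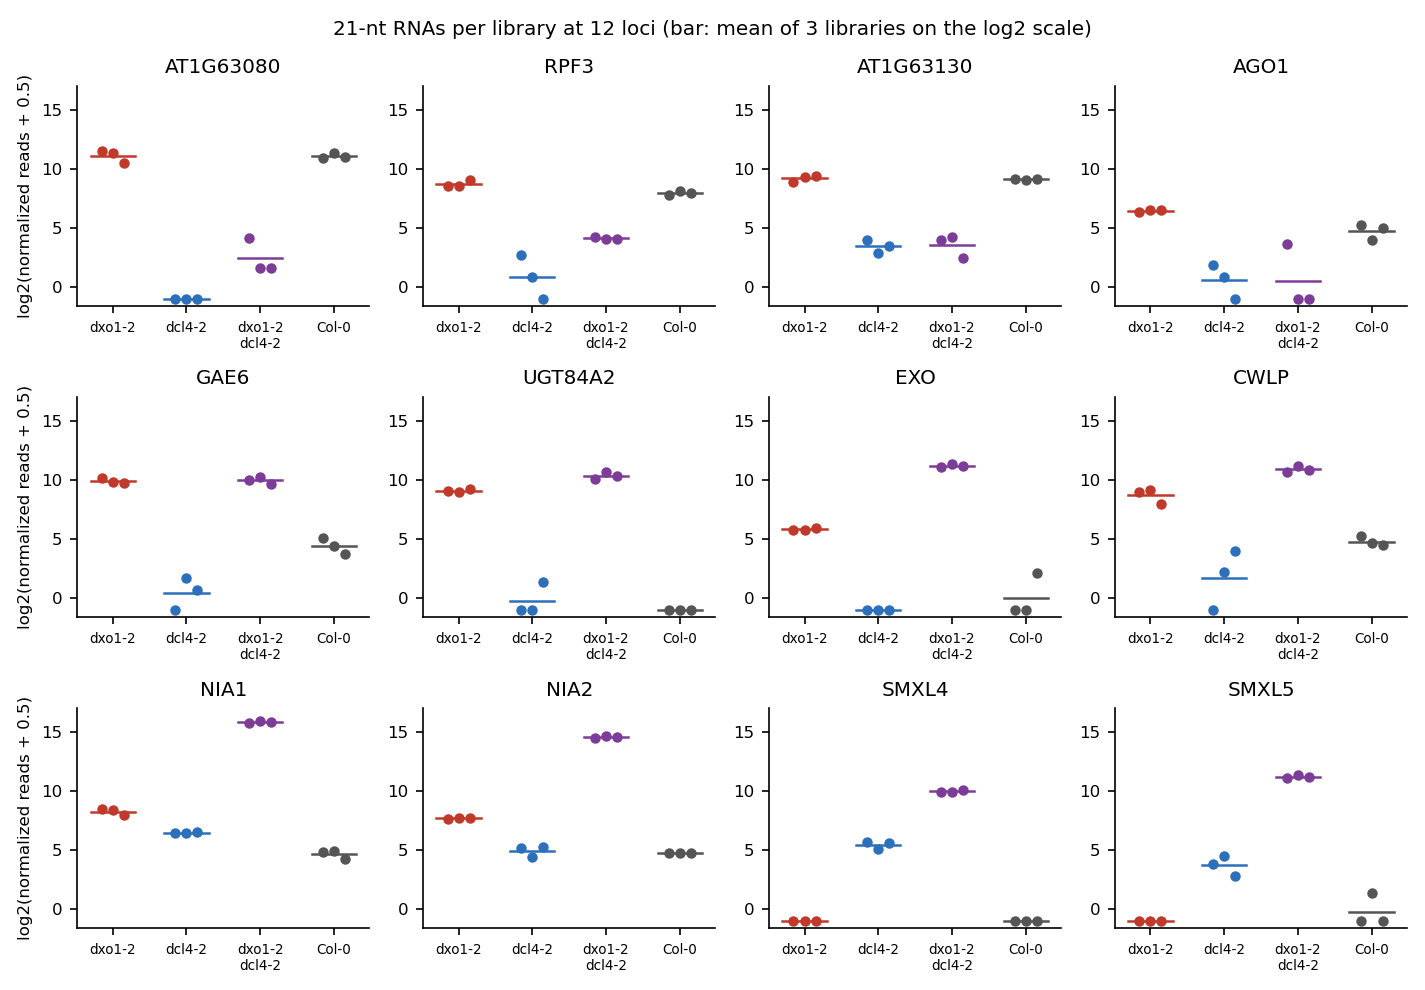
Points are single libraries at 12 loci, with log2(21-nt normalized reads + 0.5) on the y axis, a bar at the mean of the 3 libraries and the groups in the order dxo1-2, dcl4-2, dxo1-2dcl4-2, Col-0. AT1G63080 lies at 1443 to 2917 reads in dxo1-2 and at 0 in dcl4-2, whereas SMXL4 lies at 0 in dxo1-2 and at 32.8 to 49.7 in dcl4-2.

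Some other coding loci had 21-nt reads in dxo1-2 and few in either dcl4-2 or Col-0. Of the 193 loci higher at 21 nt, Col-0 lay nearer to dcl4-2 on the log2 scale at 117 and nearer to dxo1-2 at 76. Among the 161 protein-coding ones these counts were 109 and 52. The loci were chosen for being higher in dxo1-2 than in dcl4-2, so these counts are a description. The share over all loci tested was not computed. In 79 of the 193 the 3 dcl4-2 libraries held no read, so the difference there depends on the depth of dcl4-2. Of the 193, 105 had a mean of at least 20 normalized reads in dxo1-2 and 133 were also called by edgeR.

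GAE6, an epimerase that supplies galacturonic acid for pectin, had 1114, 926 and 875 normalized 21-nt reads in dxo1-2, against 0, 2.74 and 1.09 in dcl4-2. Its ratio was 726 with a 95% counting interval of 248 to 3524 (log2 difference 9.46 ± 0.52 SE, limma adjusted p = 3.34e-09). In dxo1-2dcl4-2 it had 995, 1206 and 824, and in Col-0 32.9, 20.8 and 12.7. At 22 nt GAE6 had 137.4, 163.2 and 128.5 in dxo1-2, against 10.5, 18.2 and 0 in dcl4-2 (log2 difference 4.93, limma adjusted p = 0.000451). Neither size class overlapped between the single mutants, which the naming rule required.

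A list of genes for bromodomain proteins (GTE), EXORDIUM proteins, UGT84 glucosyltransferases and APR reductases had 7 of 23 loci tested at 21 nt. Of the 7, 5 were higher in dxo1-2 (71.4%, beside 11.8% of all loci). The list summed to 669 to 777 normalized reads in dxo1-2 libraries and 16.4 to 40.2 in dcl4-2 libraries. Its called loci thus passed the filter mainly through dxo1-2, and with the filter at a mean of 1, 7 of 16 were higher. UGT84A2, which makes sinapoyl glucose, had 526, 494 and 589 in dxo1-2, against 0, 0 and 2.17 in dcl4-2 and none in Col-0. The ratio was 636 with a 95% counting interval of 176 to 5253 (log2 difference 9.26 ± 0.58 SE, limma adjusted p = 1.66e-08). EXO, a brassinosteroid-induced protein of the cell wall space, had 54.9, 54.8 and 62.0 in dxo1-2 and none in dcl4-2, at least 44.9-fold higher. Both loci stood much higher still in the cross, where UGT84A2 had 1071, 1596 and 1318 and EXO had 2216, 2589 and 2318. GTE7 had 39.1, 33.7 and 22.3 in dxo1-2, against 6.21, 0 and 2.17 in dcl4-2 (log2 difference 3.92, limma adjusted p = 0.00056). UGT84A3 had 36.9, 14.8 and 17.8 in dxo1-2 and EXL3 15.8, 26.3 and 23.8, and both were at 0 in dcl4-2. At 22 nt, 2 of 4 tested loci were higher (beside 2.54% of all loci), or 2 of 10 with the filter at a mean of 1. UGT84A2 had 82.4, 80.6 and 89.8 in dxo1-2 and none in dcl4-2, at least 58.9-fold higher, and EXO had 12.4, 22.7 and 11.4 in dxo1-2 and none in dcl4-2 (limma adjusted p = 1.82e-05).

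Further loci outside the naming rule were chosen after their values were seen. PKS1, a phytochrome kinase substrate of phototropism, had 78.2, 83.2 and 86.9 in dxo1-2 and no read in dcl4-2 or in the cross, at least 64.2-fold higher in dxo1-2. CWLP, a cell wall linker protein, had 492, 561 and 255 in dxo1-2, against 0, 4.1 and 15.2 in dcl4-2 (log2 difference 6.97, limma adjusted p = 1.42e-05). PARVUS, a glycosyltransferase of xylan synthesis, had 42.1, 56.9 and 42.7 in dxo1-2 and none in dcl4-2, at least 34.7-fold higher. The sulfotransferase SOT12 had 70.0, 56.9 and 37.0 in dxo1-2 and none in dcl4-2. The cytokinin response factors CRF2, CRF4 and CRF6 were each higher in dxo1-2 at low levels, and CRF2 had 12.04, 15.8 and 9.07 there against none in dcl4-2. In the cross CRF2 had 1317, 1486 and 1541. So PKS1 and PARVUS had almost no 21-nt reads in the cross, while CRF2 had many more there than in dxo1-2.

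AGO1, the main effector of microRNAs, was the called locus among 2 tested of 22 small RNA machinery genes at 21 nt (50%, beside 11.8% of all loci). With few reads in dcl4-2, AGO1 passed the filter mainly through dxo1-2. It had 83.5, 89.6 and 94.5 normalized reads in dxo1-2, against 3.105, 1.37 and 0 in dcl4-2. The ratio was 69.3 with a 95% counting interval of 23.6 to 337 (log2 difference 5.9 ± 1.12 SE, limma adjusted p = 0.00148). Col-0 had 37.0, 15.8 and 31.2 and the cross 12.1, 0 and 0, so both groups with dcl4-2 were low. AGO2, the other tested gene, had 8.28, 10.5 and 40.1 in dxo1-2 and 24.8, 36.9 and 13.0 in dcl4-2, which overlapped.

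Both nitrate reductase genes, which carry out the first step of nitrate assimilation, gave more 21-nt reads in dxo1-2. NIA1 had 348, 332 and 246 in dxo1-2, against 85.4, 86.2 and 93.4 in dcl4-2 (log2 difference 1.78 ± 0.21 SE, limma adjusted p = 1.73e-05). NIA2 had 195.6, 214.9 and 212.3 in dxo1-2, against 35.7, 20.5 and 38.0 in dcl4-2 (log2 difference 2.75, limma adjusted p = 6.14e-07). At 22 nt the genes parted. NIA1 had 134.4, 103.3 and 75.8 in dxo1-2, against 314, 340.4 and 489 in dcl4-2 (log2 difference −1.87, limma adjusted p = 0.0275), and it was the one locus called higher at 21 nt and lower at 22 nt. That 22-nt call was lost when any one of the 6 libraries other than dxo1-2 replicate 1 was left out (adjusted p 0.0538 to 0.117) and with quantile normalization (adjusted p = 0.807). NIA2 had 71.8, 67.1 and 55.6 at 22 nt in dxo1-2, against 29.8, 39.7 and 18.3 in dcl4-2 (log2 difference 1.2, limma adjusted p = 0.0167, edgeR 0.0905), lost without dxo1-2 replicate 1 or 2 or dcl4-2 replicate 3 (adjusted p 0.072 to 0.104). At 24 nt NIA1 was lower in dxo1-2, with 30.3, 20.7 and 18.1 against 43.6, 64.1 and 71.9 in dcl4-2 (limma adjusted p = 0.0142), though not after scaling to total reads (adjusted p = 0.405) or without dxo1-2 replicate 2 or 3 or dcl4-2 replicate 2 or 3 (adjusted p 0.071 to 0.0938). The cross held far more than either single mutant at 21 nt, with 53820 to 60974 at NIA1.

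SMXL4 and SMXL5, regulators of phloem formation, ran the other way in each class in which they were called. At 21 nt SMXL4 had no read in dxo1-2 and 49.7, 32.8 and 46.7 in dcl4-2, at least 70.8-fold lower in dxo1-2 (log2 difference −6.42, limma adjusted p = 2.18e-06). At 22 nt it had 0, 2.07 and 0 in dxo1-2, against 339, 196.6 and 271 in dcl4-2 (log2 difference −8.25, limma adjusted p = 2.98e-09). At 24 nt it had 2.02, 0.898 and 0 in dxo1-2, against 45.6, 32.1 and 59.1 in dcl4-2 (limma adjusted p = 0.000197). Col-0 had no SMXL4 read at 21 or 22 nt, and the cross had 3347, 3278 and 3663 at 22 nt. SMXL5 had 0, 0 and 1.95 at 22 nt in dxo1-2, against 66.7, 46.3 and 44.5 in dcl4-2 (log2 difference −5.94, limma adjusted p = 5.72e-07), and none at 21 nt in dxo1-2 against 14.0, 21.9 and 6.52 in dcl4-2. MYB28, a regulator of aliphatic glucosinolates outside the lists, had 0, 0 and 2.93 at 22 nt in dxo1-2, against 38.6, 21.5 and 10.3 in dcl4-2 (limma adjusted p = 0.00055).

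Most loci lower in dxo1-2 at 21 and 22 nt were pseudogenes, the annotation type that in this genome often holds transposon remnants. The called pseudogenes were a small share of the type, and most pseudogenes leaned the other way. At 22 nt pseudogenes were 1160 of the 2124 loci tested. Of the 1160, 71 were lower (6.12%, beside 4.8% of all loci), 18 higher (1.55%, beside 2.54%) and 1071 not called. At 22 nt 797 of the 1160 lay above 0, with a median log2 difference of 0.605, beside 0.27 over all loci. At 21 nt 32 of 500 were lower (6.4%, beside 3.48% of all loci) and 24 higher (4.8%, beside 11.8%), with a median of 0.748, beside 0.487. At 24 nt 13 of 2305 were lower (0.564%, beside 1.32%) and 7 higher (0.304%, beside 0.438%), with a median of 0.215, beside 0.0734. The lower count at 22 nt was 60 to 91 over the alternatives, while the 18 higher were 3 to 43. They were 43 with quantile normalization, 3 without dxo1-2 replicate 2, 7 without replicate 1 or 3, 10 without dcl4-2 replicate 2 and 34 without dcl4-2 replicate 1. The 24 higher at 21 nt were 7 without dxo1-2 replicate 1 or 2, 10 without replicate 3 and 8 in edgeR, and centring gave 12 higher and 39 lower. At 24 nt none was higher without any one dxo1-2 replicate and 12 were without dcl4-2 replicate 1, and the direction turned to 66 higher and 7 lower after scaling to total reads and to 26 and 14 with quantile normalization. All 5 nuclear chromosomes held some of the 71, with 11, 9, 14, 17 and 20 on chromosomes 1 to 5. Of the pseudogenes, 31 were lower at both 21 and 22 nt and 12 in all 3 classes. At each of the 71 the Col-0 mean lay nearer to dxo1-2 than to dcl4-2 on the log2 scale, and the mean of the cross did so at 69. The 71 were chosen for being high in dcl4-2, and the share over all loci tested was not computed.

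Summed over these 71 loci, which were chosen by this difference, the dxo1-2 libraries held 1427, 1506 and 1282 normalized 22-nt reads, against 32289, 26346 and 23606 in dcl4-2. The cross held 1634, 2119 and 1691 and Col-0 held 775, 819 and 863, so dcl4-2 was the one group that stood high. At 21 nt the same loci summed to 803, 729 and 625 in dxo1-2, against 6661, 5139 and 5106 in dcl4-2. At 24 nt they summed to 3024, 2876 and 2337 in dxo1-2, against 5435, 4992 and 5167 in dcl4-2.

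**Figure D3:**
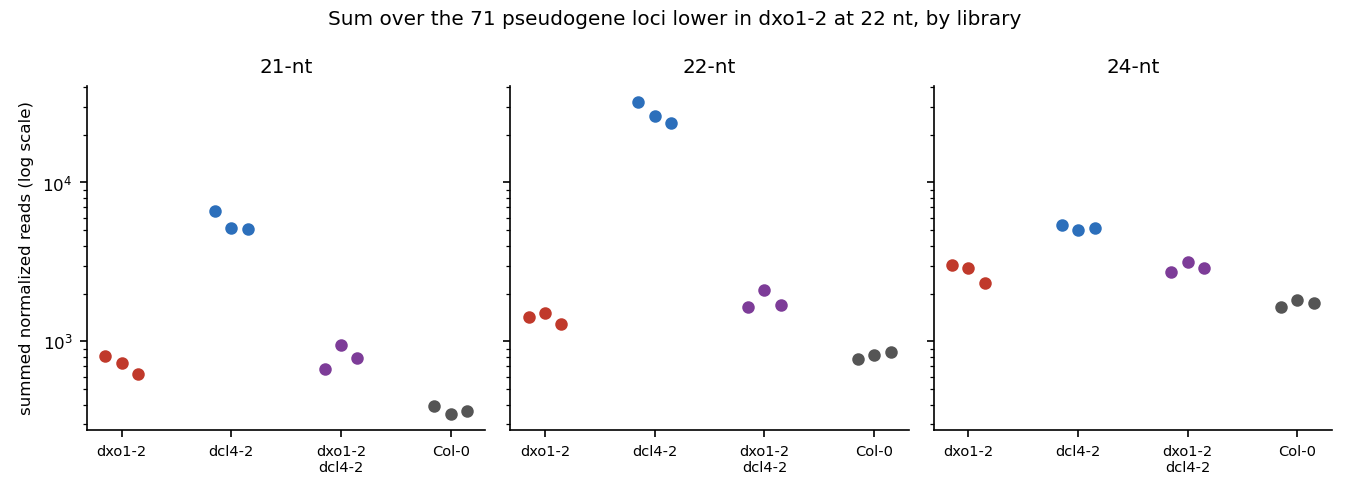
Normalized reads summed over the 71 pseudogene loci lower at 22 nt in dxo1-2, for each library (points, log axis) and size class, in the order dxo1-2, dcl4-2, dxo1-2dcl4-2, Col-0. The loci were chosen by their 22-nt difference, so the panels are a description. The 22-nt sums are 1282 to 1506 in dxo1-2 and 23606 to 32289 in dcl4-2.

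AT3G43862 was the most different pseudogene at 22 nt. It had 39.0, 21.7 and 13.3 normalized reads in dxo1-2, against 3699, 2955 and 3014 in dcl4-2 (log2 difference −7.12 ± 0.36 SE, limma adjusted p = 1.55e-10). The cross had 59.2, 86.4 and 92.6 and Col-0 had 9.69, 16.6 and 13.2. At 21 nt it had 9.03, 28.4 and 7.18 in dxo1-2, against 450, 375 and 464 in dcl4-2 (limma adjusted p = 5.22e-05). AT5G32511 had 22.3, 27.9 and 22.4 at 22 nt in dxo1-2, against 1352, 1438 and 1076 in dcl4-2 (limma adjusted p = 1.84e-09). AT5G31719 was lower in the 3 classes, with 69.8, 47.6 and 53.7 at 24 nt in dxo1-2 against 422, 402 and 473 in dcl4-2 (log2 difference −2.93, limma adjusted p = 2.57e-05). The single mutants did not overlap at these loci, which the naming rule required. AT3G33067 had 3.01, 0 and 6.80 at 21 nt in dxo1-2, against 110.2, 98.5 and 88.0 in dcl4-2 (limma adjusted p = 0.00715), a call that was lost without dxo1-2 replicate 2 (adjusted p = 0.0553).

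At AT5G38850, a protein-coding locus chosen after its values were seen, dcl4-2 lay at the level of Col-0. At 22 nt it had 54.5, 27.9 and 16.3 in dxo1-2, against 602, 563 and 473 in dcl4-2 (log2 difference −4.2 ± 0.35 SE, limma adjusted p = 6.19e-08). Col-0 had 436, 597 and 533 and the cross 16.8, 22.2 and 17.4. The values of both groups with dxo1-2 were thus low and those of both groups without it high.

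MicroRNAs, which DCL1 cuts from hairpins, were mostly not called, but under the deposited scaling their share of lower calls exceeded that over all loci. At 21 nt, 107 of 178 annotated microRNA loci passed the filter. Of the 107, 2 were higher in dxo1-2 (1.87%, beside 11.8% of all loci) and 11 lower (10.3%, beside 3.48%). Their median log2 difference was −0.244, beside 0.487 over all loci. Over the alternatives run, 2 to 6 were higher and 8 to 20 lower, with 6 higher and 8 lower without dcl4-2 replicate 2. Summed reads of microRNA loci at 21 nt were 59011 to 63218 in dxo1-2 and 73151 to 77658 in dcl4-2. At 22 nt, 3 of 56 were higher (5.36%, beside 2.54% of all loci) and 8 lower (14.3%, beside 4.8%), with a median of −0.582. With quantile normalization 12 were higher and 5 lower (median 0.498). The 8 lower were 3 without dxo1-2 replicate 2 or dcl4-2 replicate 3, and 5 in edgeR, after scaling to total reads or without dxo1-2 replicate 1 or dcl4-2 replicate 1 or 2. At 24 nt, 2 of 17 were lower (11.8%, beside 1.32% of all loci). None was higher by limma, at an unadjusted p under 0.05 or by edgeR. None was called in either direction after scaling to total reads or without dxo1-2 replicate 2. The 2 were 1 without dxo1-2 replicate 1 or dcl4-2 replicate 1 or 3.

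MIR845a gave more 21-nt reads in dxo1-2 than in dcl4-2. The miR845 family is known to match retrotransposons at their primer binding sites. It had 16905, 12427 and 7106 normalized reads in dxo1-2, against 2510, 1101 and 2062 in dcl4-2 (log2 difference 2.68 ± 0.31 SE, limma adjusted p = 1.47e-05). The cross had 9691 to 15435, as high as dxo1-2, and Col-0 had 667 to 1000. At 22 nt MIR845b had 362, 337 and 229 in dxo1-2, against 12.3, 11.6 and 7.99 in dcl4-2 (log2 difference 4.8, limma adjusted p = 3.66e-05). MIR845a had 9.287, 9.296 and 12.03 at 22 nt in dxo1-2 and none in dcl4-2, at least 7.37-fold higher, a call that was lost with the 6 libraries alone (adjusted p = 0.0929).

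Among the microRNAs lower in dxo1-2 at 21 nt, miR398 targets copper superoxide dismutases. MIR398c had 3732, 3899 and 3632 in dxo1-2, against 13491, 10886 and 12025 in dcl4-2 (log2 difference −1.69 ± 0.13 SE, limma adjusted p = 1.15e-07). Col-0 had 11837 to 13492 and the cross 752 to 874, so dcl4-2 was at the Col-0 level. MIR161, whose mature forms target PPR transcripts, had 16728, 13498 and 11717 in dxo1-2, against 20332, 23773 and 25723 in dcl4-2 (log2 difference −0.74, limma adjusted p = 0.00484). MIR173, the trigger of trans-acting siRNAs from TAS1 and TAS2, had 1803, 1758 and 2202 in dxo1-2, against 4427, 2871 and 4665 in dcl4-2 (log2 difference −1.03, limma adjusted p = 0.000947). The groups did not overlap for these microRNAs.

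MIR827, which responds to phosphate starvation, had 72.2, 91.7 and 298 in dxo1-2, against 449, 648 and 386 in dcl4-2 (log2 difference −1.94, limma adjusted p = 0.00243). MIR156f, of the family that holds plants in the juvenile phase, had 9.78, 15.8 and 21.2 in dxo1-2, against 157, 113.5 and 118.4 in dcl4-2 (log2 difference −3.07, limma adjusted p = 3.03e-05). It was the 1 called member of 5 tested MIR156 loci. The other 6 lower ones were MIR158a, MIR160c, MIR162b, MIR166a, MIR166b and MIR167a, with log2 differences from −1.41 to −0.48. MIR166a and MIR166b give the same mature microRNA. All 7 MIR166 loci were tested, and the 5 not called lay above 0 (family median log2 difference 0.0686). The call of MIR166a (limma adjusted p = 0.0376) was lost in several alternatives. Among them were those without dxo1-2 replicate 1 or 2 or dcl4-2 replicate 2 or 3 (adjusted p 0.0896 to 0.138). Calls of MIR166b and MIR160c were lost without dcl4-2 replicate 2 (adjusted p = 0.0508 and 0.0652), and that of MIR166b also without dcl4-2 replicate 3 (0.0527). That of MIR161 was lost with quantile normalization (0.202) and with the 6 libraries alone (0.0508). The second microRNA higher at 21 nt was MIR169f, of a family that targets NF-YA factors, with 94.8, 109.6 and 340.4 in dxo1-2 against 35.7, 31.5 and 27.2 in dcl4-2.

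At 22 nt MIR319c, of the family that targets TCP factors, had 3284, 3561 and 2345 in dxo1-2, against 11263, 7043 and 9700 in dcl4-2 (log2 difference −1.6 ± 0.21 SE, limma adjusted p = 3.08e-05, but a log2 difference of 0 and an adjusted p of 1 with quantile normalization). MIR167d had 42.1, 43.4 and 57.9 in dxo1-2, against 426, 342 and 478 in dcl4-2 (log2 difference −3.11, limma adjusted p = 4.11e-05). Both stood without overlap. MIR822, known as a microRNA that DCL4 cuts, had 59.4, 31.0 and 70.3 at 22 nt in dxo1-2, against 10.5, 11.6 and 13.7 in dcl4-2 (limma adjusted p = 0.0167). That call was lost without dxo1-2 replicate 1 or 3 or dcl4-2 replicate 1 or 2 (adjusted p 0.0505 to 0.108). At 21 nt it had 180.6, 233.9 and 314 in dxo1-2, against 48.1, 46.5 and 39.1 in dcl4-2. That 21-nt difference did not pass limma (adjusted p = 0.0857) and passed edgeR (adjusted p = 0.0021). Its Col-0 values at 21 nt were 337, 281 and 336, and the cross had 19.9, 0 and 10.1. At 24 nt MIR168a, whose microRNA targets AGO1, had 43.6, 29.7 and 37.3 in dxo1-2, against 95.2, 88.8 and 99.7 in dcl4-2 (log2 difference −1.36, limma adjusted p = 0.008), which was lost without dxo1-2 replicate 2 (0.0679) and after scaling to total reads (0.367).

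**Figure D4:**
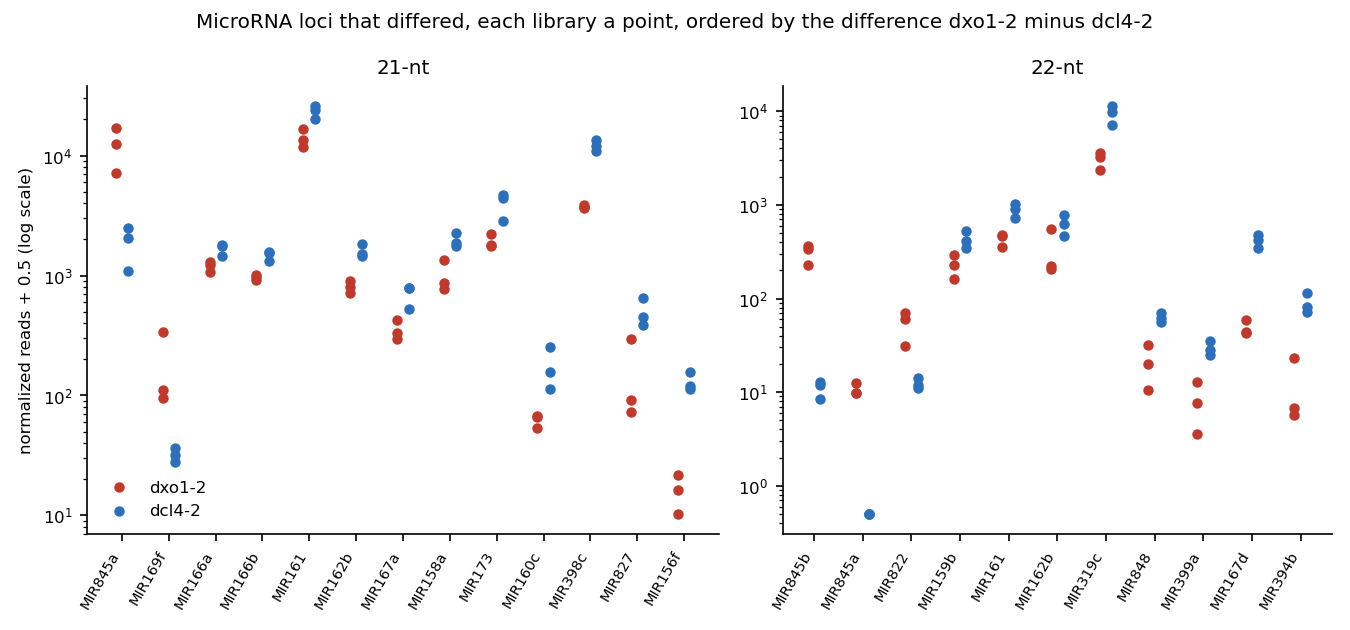
Normalized reads + 0.5 per library (points, log axis) at the microRNA loci called at 21 nt and at 22 nt, with dxo1-2 in red left of dcl4-2 in blue. MIR845a at 21 nt lies at 7106 to 16905 in dxo1-2 and 1101 to 2510 in dcl4-2. MIR398c lies at 3632 to 3899 in dxo1-2 and 10886 to 13491 in dcl4-2.

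The balance of 22-nt to 21-nt reads was lower in dxo1-2 at 20 loci that passed the test and had reads in both mutants. Of 2575 loci with a mean of at least 5 in either class, 22 had less 22-nt relative to 21-nt in dxo1-2 (0.854% of those tested, limma) and none had more. At an unadjusted p under 0.05, 182 had less and 24 more, and no count test was run on the balance. The median log2 balance difference of all 2575 loci was −0.562, against which the differences below are to be read. Other scalings between libraries were not run for the balance. The 22 comprised 19 protein-coding loci, 2 chloroplast loci and 1 pseudogene, and 7 of the 17 PPR loci tested were among them. At 2 of the 22, the PPR locus AT1G64100 and the pseudogene AT2G35570, the dcl4-2 libraries held no 21- or 22-nt read. The dcl4-2 balance there comes from the added 0.5 alone, and no difference can be read from these calls. That leaves 20 loci, 6 of them PPR loci. Of the 20, 8 had at least 10 such reads in each of the 6 libraries, and 1 of these 8 was a PPR locus. The balance call of the PPR locus RPF2 was lost when any one of the 6 libraries was left out (limma adjusted p 0.0602 to 0.139). The counts of less 22-nt were 9 without dxo1-2 replicate 2, 10 without dxo1-2 replicate 1 and 12 without dcl4-2 replicate 2.

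At AT1G63080, 22-nt reads made up 20.4%, 17.5% and 21.2% of the 21- and 22-nt reads in dxo1-2. In dcl4-2 they made up 100% in each library, of 11, 18 and 32 reads (log2 difference −8.02 ± 0.44 SE, limma adjusted p = 5.33e-11). At NIA1 the 22-nt share was 32.0%, 24.1% and 26.4% in dxo1-2, against 76.5%, 76.6% and 83.3% in dcl4-2 (log2 difference −3.66, limma adjusted p = 0.000543). At AGO1 it was 28.9%, 8.60% and 17.8% in dxo1-2, against 81.8%, 85.7% and 100% in dcl4-2, of 11, 7 and 6 reads there. The groups were far apart at these loci, but at AGO1 they rest on few dcl4-2 reads.

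Among 14 listed NLR immune receptor genes, which detect pathogen effectors, AT5G43740 had the most reads tested at 22 nt. Its 22-nt share was 4.096%, 1.04% and 11.3% in dxo1-2, against 79.8%, 65.1% and 68.2% in dcl4-2 (log2 difference −6.21 ± 1.06 SE, limma adjusted p = 0.00273, and 0.0505 without dxo1-2 replicate 2). By class it had 211.4, 200.2 and 116.0 at 21 nt in dxo1-2, against 27.9, 20.5 and 38.0 in dcl4-2, and 7.43, 2.07 and 12.7 at 22 nt in dxo1-2, against 124.5, 46.3 and 85.6 in dcl4-2. Neither class passed limma alone (adjusted p = 0.0507 at 21 nt and 0.0543 at 22 nt), although the groups did not overlap in either. RSG2 was the 1 receptor of 6 tested that passed at 21 nt (16.7%, near the 11.8% of all loci that were higher). It had 63.2, 46.4 and 42.7 in dxo1-2 against 6.21, 2.74 and 14.1 in dcl4-2 (log2 difference 2.89, limma adjusted p = 0.00207). At 22 nt AT5G43740 passed in 8 of the alternatives, edgeR among them (adjusted p = 0.00922). None of the 6 tested at 22 nt or the 3 at 24 nt passed limma, and 2 at 22 nt were lower at an unadjusted p under 0.05.

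RPOA, the chloroplast gene for an RNA polymerase subunit, showed the same direction with more reads. Its 22-nt share was 25.4%, 18.8% and 24.1% in dxo1-2, against 43.3%, 47.2% and 46.2% in dcl4-2 (log2 difference −1.86 ± 0.37 SE, limma adjusted p = 0.0115). PSBI, of photosystem II, had 17.8%, 15.5% and 22.8% in dxo1-2, against 49.8%, 33.2% and 37.3% in dcl4-2 (limma adjusted p = 0.00252).

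**Figure D5:**
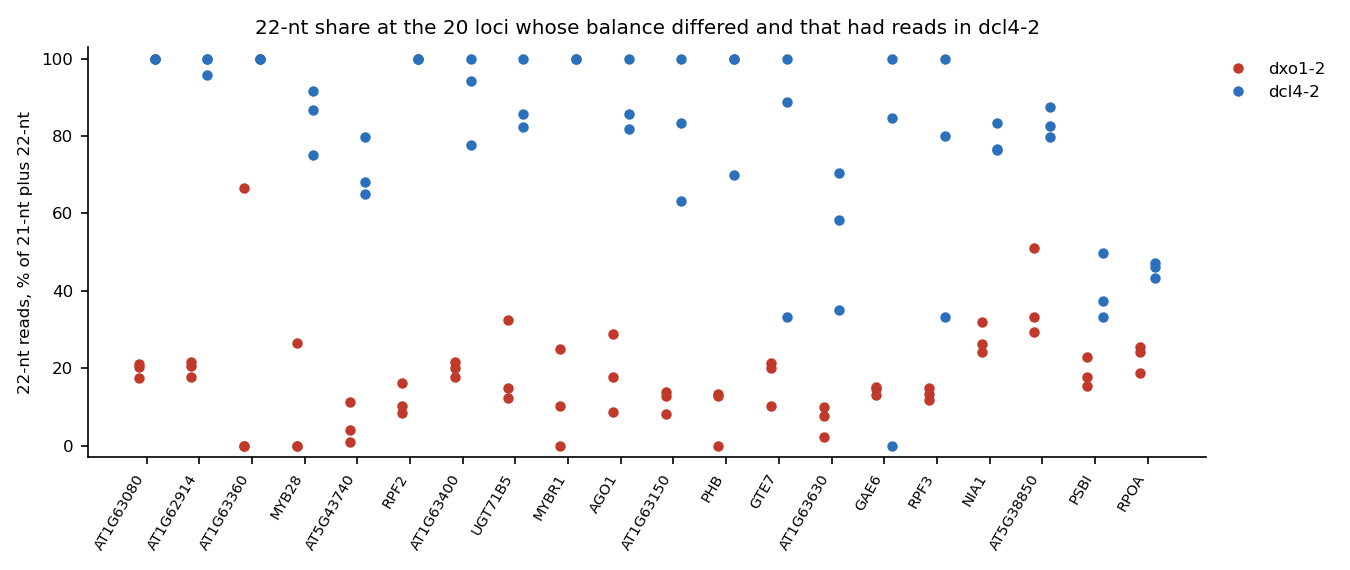
Share of 22-nt reads among the 21- and 22-nt reads (percent) in each library at the 20 loci whose balance differed and that had reads in dcl4-2, with dxo1-2 in red left of dcl4-2 in blue. Libraries with no read at a locus are left out. AT1G63080 lies at 17.5% to 21.2% in dxo1-2 and at 100% in dcl4-2, and RPOA at 18.8% to 25.4% in dxo1-2 and 43.3% to 47.2% in dcl4-2.

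Chloroplast genes, which are not known as sources of Dicer products, had calls that depended on the scaling. At 21 nt 6 of 82 chloroplast loci were higher in dxo1-2 (7.32%, beside 11.8% of all loci) and 5 lower (6.1%, beside 3.48%), or 2 and 10 after centring, and 3 were lower without dxo1-2 replicate 2. At 22 nt 6 of 82 were lower (7.32%, beside 4.8%), but 7 were higher and none lower with quantile normalization. At 24 nt 11 of 71 were lower (15.5%, beside 1.32%), but none after scaling to total reads, and 6 without dxo1-2 replicate 1 or 2 or dcl4-2 replicate 2 or 3, and 7 without dxo1-2 replicate 3. PSBA had 918, 1003 and 1109 24-nt reads in dxo1-2, against 2941, 3571 and 3477 in dcl4-2 (log2 difference −1.72, limma adjusted p = 2.57e-05). RPOA at 21 nt ran the other way, with 333, 381 and 564 in dxo1-2, against 111.8, 102.6 and 98.9 in dcl4-2 (log2 difference 1.99, limma adjusted p = 0.000209). The part of chloroplast reads in the differences at other loci was not tested.

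All 23 listed nuclear photosynthesis genes passed the filter in each class, with 0 higher in dxo1-2 under the deposited scaling, by limma, by edgeR or at an unadjusted p under 0.05. By limma 1 was lower at 21 nt (4.35%, beside 3.48% of all loci), 2 at 22 nt (8.7%, beside 4.8%) and 4 at 24 nt (17.4%, beside 1.32%). The 2 at 22 nt were 1 without dxo1-2 replicate 1 and none with the filter at a mean of 1. The 4 at 24 nt were 1 without dxo1-2 replicate 1 or 2 or dcl4-2 replicate 2, and 2 without dcl4-2 replicate 3. Quantile normalization gave 3 higher and 1 lower at 22 nt, and after scaling to total reads none was called at 24 nt. The median log2 difference of the list at 24 nt was −1.29, beside 0.0734 over all loci. LHCB2.1, an antenna protein of photosystem II, had 12.9, 10.8 and 32.5 24-nt reads in dxo1-2, against 57.5, 96.2 and 121.8 in dcl4-2 (log2 difference −2.37, limma adjusted p = 0.00373, but 0.0737 after scaling to total reads). LHCB6 had 11.8, 8.26 and 9.11 22-nt reads in dxo1-2, against 40.3, 41.3 and 37.7 in dcl4-2 (log2 difference −1.99, limma adjusted p = 0.0052, but 0.0676 with the filter at a mean of 1). LHCB2.2 at 21 nt had 46.6, 36.9 and 53.6 in dxo1-2, against 88.5, 149.1 and 97.8 in dcl4-2 (log2 difference −1.26, limma adjusted p = 0.0211). That last call was lost without dxo1-2 replicate 1 or 2 or dcl4-2 replicate 2 (adjusted p 0.0577 to 0.0995). The mRNA values of these genes in dxo1-2 are given further on.

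Few loci differed at 24 nt outside these groups. AT1G66490 had 32.3, 26.1 and 26.5 24-nt reads in dxo1-2 and none in dcl4-2, at least 16.7-fold higher in dxo1-2 (limma adjusted p = 0.00608). AT3G49520 had 29.5, 24.3 and 31.1 in dxo1-2 and none in dcl4-2, at least 17.5-fold higher. AGL48, of the MADS-box family, had 11.3, 24.3 and 27.5 in dxo1-2 and none in dcl4-2, a call lost without dxo1-2 replicate 2 or replicate 3 (adjusted p = 0.056 and 0.0561). AT1G66490 and AT3G49520 were higher at 22 nt as well, where 4 reads each in the dcl4-2 libraries came from replicate 2.

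Lists tied to trans-acting siRNAs had few tested members and no call. Of 8 genes that trans-acting siRNAs target, 1 was tested at 21 nt, 2 at 22 nt and 1 at 24 nt, and none differed by limma or edgeR or at an unadjusted p under 0.05. ARF2, an auxin response factor, had 3.76, 3.16 and 6.05 at 21 nt in dxo1-2, against 9.31, 2.74 and 6.52 in dcl4-2, which overlapped. The TAS loci were not analysed here. Of 6 auxin receptor genes, 2 were tested at 21 nt and 1 at 22 nt, and none passed by limma or edgeR, with 1 lower at 22 nt at an unadjusted p under 0.05. AFB3 had 7.43, 3.10 and 3.25 22-nt reads in dxo1-2, against 15.8, 31.4 and 20.5 in dcl4-2 (log2 difference −2.22, limma adjusted p = 0.118), with no overlap. It passed with the 6 libraries alone (adjusted p = 0.0367) and with quantile normalization (0.0166).

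Calls were partly shared between size classes, which come from the same libraries. Of the 193 loci higher at 21 nt and the 54 at 22 nt, 30 were in both, or 15.5% and 55.6% of each list. Of the 57 loci lower at 21 nt and the 102 at 22 nt, 41 were in both, or 71.9% and 40.2%. Higher in all 3 classes were 4 loci, and lower in all 3 were 19. In any class 225 loci were higher and 136 lower.

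The mRNA libraries, of dxo1-2 and Col-0 at 16 days, give the transcript levels of some of these loci in dxo1-2, and no mRNA library of dcl4-2 was used here. Values are FPKM as mean ± SD with n = 3, without a test here. DXO1 itself was at 6.73 ± 0.882 in dxo1-2 and 10.9 ± 0.975 in Col-0. Thus its transcript was not absent in dxo1-2. UGT84A2 was at 41.4 ± 2.05 in dxo1-2 and 9.64 ± 0.737 in Col-0, and EXO at 106.5 ± 3.05 in dxo1-2 and 29.7 ± 0.964 in Col-0. PARVUS was at 61.4 ± 1.83 in dxo1-2 and 15.3 ± 1.08 in Col-0. NIA1 was at 88.5 ± 0.852 in dxo1-2 and 48.7 ± 0.0656 in Col-0.

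Not every locus with more 21-nt reads in dxo1-2 than in dcl4-2 had clearly more mRNA in dxo1-2 than in Col-0. GAE6 was at 99.1 ± 4.09 in dxo1-2 and 173.6 ± 7.41 in Col-0. AGO1 was at 35.9 ± 2.77 in dxo1-2 and 33.5 ± 1.91 in Col-0. AT1G63080, whose 21-nt reads in dxo1-2 spanned those of Col-0, was at 1.11 ± 0.127 in dxo1-2 and 0.913 ± 0.0569 in Col-0. SMXL4 and MYB28 had fewer 22-nt reads in dxo1-2 than in dcl4-2. Their mRNA was at 0.617 ± 0.176 in dxo1-2 and 1.56 ± 0.131 in Col-0 for SMXL4. For MYB28 it was at 22.4 ± 0.686 in dxo1-2 and 22.4 ± 0.672 in Col-0. The photosynthesis genes below were called lower in dxo1-2 than in dcl4-2 in a size class. LHCB2.1 was at 2637 ± 83.8 in dxo1-2 and 5763 ± 164 in Col-0, and LHCB2.2 at 1936 ± 53.1 in dxo1-2 and 4819 ± 109 in Col-0. LHCB6 was at 2033 ± 34.7 in dxo1-2 and 5383 ± 121 in Col-0. DCL4 was at 4.46 ± 0.358 in dxo1-2 and 3.303 ± 0.115 in Col-0. These plants were 6 days older than those of the small RNA libraries, so the values stand side by side only.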

How the data were processed

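Small RNA of 10-day-old plants was sequenced in 12 libraries and mRNA of 16-day-old plants in 9. The small RNA tables give a normalized read signal per locus and size class, deposited by the authors. Per the submitters' processing notes, Bowtie and the build TAIR10 were used for these libraries, and the sources used here do not give settings. Each value was a whole number of reads (within 0.001) times one step per library and class. The steps equal median-of-ratios factors over 592, 989 and 1938 loci present in all 12 libraries, so reads could be recovered. The mRNA values are FPKM deposited by the authors, and TopHat2 2.1.0, RSEM 2.1.30 and TAIR10 are named, per the submitters' processing notes. Groups and replicate numbers came from the sample titles, and columns were matched by the labels.

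Each class was tested by itself with limma 3.58.1 (R 4.3.3) on log2(deposited value + 0.5). The 12 libraries entered one fit with a mean-variance trend, the contrast was dxo1-2 minus dcl4-2, and Benjamini-Hochberg adjustment ran over the loci with a mean of at least 5. The balance is log2 of 22-nt over 21-nt reads, each plus 0.5. edgeR 4.0.16 (quasi-likelihood, TMM) and DESeq2 1.42.0 on recovered reads, other scalings, pseudocounts, filters and left-out libraries were alternatives. The fits were tested on simulated data. Counting intervals are exact at 95%, floors are 3 reads over a group, and both cover counting error only. Locus types and names came from the tables and from a RefSeq gene table of TAIR10.1, which matched 31722 of 32420 loci, and no coordinates are printed.

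Named loci were the 5 most different per direction and class with no overlap between groups and a mean of at least 20 reads, called members of the gene lists and called microRNAs. Members and lists were chosen with earlier results of these data known. At 21, 22 and 24 nt, 24, 30 and 24 tested loci had the same counts as another locus in all 12 libraries.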

Additional observations from a re-analysis of the deposited data

How the results depend on the processing

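Of the values of named loci under the alternatives, 1225 kept direction and call, 131 lost the call, 10 gained it and 4 changed sign or went to 0. The 4 were 22-nt microRNAs under quantile normalization, at 0.85 for MIR159b, 0.13 for MIR161, 0 for MIR319c and 0.48 for MIR162b (log2), and the cause was not tested. A filter at a mean of 1 gave 351 higher loci at 21 nt and 32 at 22 nt, with more loci tested. Centring gave 89 lower at 21 nt. Quantile normalization gave 137 lower at 21 nt, 122 higher at 22 nt and 41 higher and 79 lower at 24 nt. Scaling to total reads of the 3 classes made 90 higher and 10 lower at 24 nt, and DESeq2 gave 97 lower there. For the balance, a pseudocount of 2 gave 2 loci with more and 40 with less 22-nt, and the 6 libraries alone gave 1 with more. For these counts too the cause was not tested. Leaving out 1 library gave 140 to 192 higher and 46 to 56 lower at 21 nt, 20 to 69 and 85 to 89 at 22 nt, 3 to 21 and 28 to 34 at 24 nt, and 0 to 1 more and 9 to 18 less for the balance. At 22 nt the higher count was 26, 20 and 30 without dxo1-2 replicates 1, 2 and 3. At 24 nt it was 3, 3 and 6 without them, and the lower count was 28 without dxo1-2 replicate 1 or 2 or dcl4-2 replicate 2 and 29 without dcl4-2 replicate 3. The replicate numbers share no stated origin, and same-numbered libraries did not deviate together (correlations −0.0676 to 0.0359). With replicate as a block, 192 loci were higher and 53 lower at 21 nt, 45 and 95 at 22 nt, 14 and 41 at 24 nt, and 0 more and 20 less for the balance. Depth limits loci near 0 in dcl4-2, whose libraries held 195104 to 303428 reads.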
